A study of Mus musculus with 8 samples.

Results

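Protein-coding promoters whose accessibility call switched between the FAK lines numbered 1301 of the 10150 promoter regions called in at least 1 library (12.8%; 95% Wilson interval, 12.2% to 13.5%, counting error only). They were chosen by the calls themselves. The 24383 peaks of highest −log10 p-value were kept in each of the 8 libraries, which is as many as the smallest list held on chromosomes 1 to 19, X and Y, and overlapping peaks were merged into 40309 regions. A promoter region lay within 500 bp of the transcription start site (TSS) of a protein-coding transcript. A line was "on" at a region where both of its libraries called it, "off" where neither did, and "mixed" where 1 did. A switching promoter was on in at least 1 line and off in at least 1 other line. Outside promoters, 6915 of 30159 merged regions met the same rule (22.9%). The calls that defined these promoters are given below as a description. Tests of calls over all 10150 promoter regions include them and are not tests of the switching promoters.

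The series used ATAC-seq, in which the transposase Tn5 cuts DNA that is free of nucleosomes, so that a peak marks accessible chromatin. All 8 libraries came from cutaneous squamous cell carcinoma (SCC) cells of K14CreER FAKflox/flox FVB mice, induced by DMBA/TPA carcinogenesis and driven by Ha-Ras. FAK was deleted in culture with 4-hydroxytamoxifen, and 1 deleted clone gave the FAK-/- line. FAK-WT, FAK-nls and FAK-kd cells were that clone after retroviral re-expression of wild-type FAK, of FAK with the nuclear-localization changes R177A, R178A, R190A, R191A, R216A and R218A, or of kinase-deficient FAK (K454R). Thus, every line shared the deletion and the clonal origin, each was a single line, and 2 libraries stood for each. With 1 line for each form of FAK, the form and the history of a line cannot be told apart.

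FAK, the product of Ptk2, is a tyrosine kinase of focal adhesions that also enters the nucleus. A promoter is the stretch of DNA around a TSS where general factors and RNA polymerase II assemble, and it is usually accessible in cells that use the gene. Promoters rich in CpG dinucleotides, typical of housekeeping genes, tend to be accessible in most cell types, whereas CpG-poor promoters are more often tied to tissue or stimulus. In bulk chromatin, a change in the share of cells with an accessible site and a change in accessibility per cell cannot be told apart.

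The sequences below are examples, 8 of 1301, to show the DNA behind the calls. They are the bases just upstream of the TSS of the leading promoter of each pattern with a single line on or a single line off, printed 5′ to 3′ on the gene's strand from the mm10 assembly (GRCm38.p6). Capitals mark matches to fixed transcription factor motifs on either strand. NF-Y is CCAAT (read as ATTGG on the other strand), TEAD is GGAATG, the cyclic AMP response element (CRE) is TGACGTCA and SP is GGGCGGGG. Calcrl was on in FAK-WT cells alone (chr2:84425412-84425611, minus strand), Snx22 in FAK-/- cells alone (chr9:66069720-66069919, minus), Tnrc18 in FAK-nls cells alone (chr5:142817663-142817862, minus) and Nid2 in FAK-kd cells alone (chr14:19751065-19751264, plus). Fabp5 was off in FAK-WT cells alone (chr3:10012348-10012547, plus), Nckap5l in FAK-/- cells alone (chr15:99457749-99457933, minus), H1foo in FAK-nls cells alone (chr6:115944738-115944937, plus) and Zfp595 in FAK-kd cells alone (chr13:67332571-67332700, minus). Nckap5l was second in its pattern, after Dusp5, whose upstream bases overlapped an annotated exon. The H1foo region lay wholly upstream of these bases, and the Zfp595 stretch ends 71 bases before its TSS.
Calcrl: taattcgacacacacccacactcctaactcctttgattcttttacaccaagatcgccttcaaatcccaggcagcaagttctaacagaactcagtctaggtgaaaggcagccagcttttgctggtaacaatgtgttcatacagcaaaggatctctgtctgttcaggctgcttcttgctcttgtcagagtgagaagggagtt
Snx22: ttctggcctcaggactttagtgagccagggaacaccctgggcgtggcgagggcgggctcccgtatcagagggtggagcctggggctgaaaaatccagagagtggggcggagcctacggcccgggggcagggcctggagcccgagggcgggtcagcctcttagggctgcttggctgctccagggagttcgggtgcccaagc
Tnrc18: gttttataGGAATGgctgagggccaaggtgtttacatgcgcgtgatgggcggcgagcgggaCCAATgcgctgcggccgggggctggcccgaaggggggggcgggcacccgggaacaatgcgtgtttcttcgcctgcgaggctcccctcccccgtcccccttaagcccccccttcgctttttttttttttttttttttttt
Nid2: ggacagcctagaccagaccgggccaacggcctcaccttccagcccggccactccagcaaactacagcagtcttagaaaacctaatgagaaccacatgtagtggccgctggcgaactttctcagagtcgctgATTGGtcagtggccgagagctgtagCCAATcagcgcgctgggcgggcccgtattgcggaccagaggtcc
Fabp5: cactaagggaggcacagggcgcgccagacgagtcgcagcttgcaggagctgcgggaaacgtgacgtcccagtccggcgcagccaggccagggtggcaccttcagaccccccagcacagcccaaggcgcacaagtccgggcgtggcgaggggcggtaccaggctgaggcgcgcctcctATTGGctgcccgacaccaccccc
Nckap5l: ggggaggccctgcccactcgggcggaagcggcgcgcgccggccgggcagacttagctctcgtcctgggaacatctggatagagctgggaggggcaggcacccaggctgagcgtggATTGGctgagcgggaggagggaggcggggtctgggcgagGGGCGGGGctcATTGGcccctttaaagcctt
H1foo: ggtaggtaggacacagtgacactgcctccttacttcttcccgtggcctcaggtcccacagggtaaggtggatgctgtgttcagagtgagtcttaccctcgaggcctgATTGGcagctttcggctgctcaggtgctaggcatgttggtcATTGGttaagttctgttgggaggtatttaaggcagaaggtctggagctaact
Zfp595: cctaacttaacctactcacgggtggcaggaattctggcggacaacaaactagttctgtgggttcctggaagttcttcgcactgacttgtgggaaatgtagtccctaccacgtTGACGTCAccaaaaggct
The Calcrl stretch held 2 CpG dinucleotides at 45.5% GC and none of the motifs, and the Snx22 stretch none of them at 68.0% GC. By contrast, the Nckap5l stretch held 14 CpGs at 70.3% GC, with 2 NF-Y matches and 1 SP match, and the Fabp5 stretch held 17 CpGs at 70.5% GC with 1 NF-Y match. Nid2 and H1foo each had 2 NF-Y matches, Tnrc18 had 1 NF-Y and 1 TEAD match and Zfp595 had 1 CRE match. A match says only that these letters occur there.

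Deposited lists held 24402 to 53728 peaks, and the values at the limit differed accordingly, from a −log10 p of 3.36 to 8.10. FAK-nls had the shortest lists (24402 and 24974 peaks), so nearly all of its peaks were used. Of the 12 keratinocyte marker promoters, Itga6 and Klf5 were called in all 8 libraries and the other 10, including Krt5, Krt14 and Trp63, in none. Leukocyte and endothelial markers were called in 0 of 8 and 0 of 6 cases, melanocyte markers in 2 of 6 (Mitf and Pmel, in every library) and 5 of 8 fibroblast markers in at least 1 library, of which Col1a1 was itself a switching promoter. The labelled epidermal origin therefore showed at few of its defining promoters.

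Peak ranks, which the rule used, are given for description and support nothing further. Ranked from the strongest peak of each library, their best rank in any library had a median of 14048, against 3221 for the 6095 promoters called in all 8 libraries (60.0% of promoter regions). Only 38 of them reached the first 5000 ranks (2.92%), compared with 4155 of the promoters called throughout (68.2%). Their median fold enrichment in called libraries was 4.05 against 5.08, and their median width was 859 bp against 1148 bp. These differences follow from the rule, since a member had to miss the limit in a line and a promoter called throughout had to meet it in all 8 libraries. The remaining 2754 promoter regions were called in some libraries without meeting the rule. In 1203 cases (92.5%), the TSS lay inside the region.

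**Figure D1:**
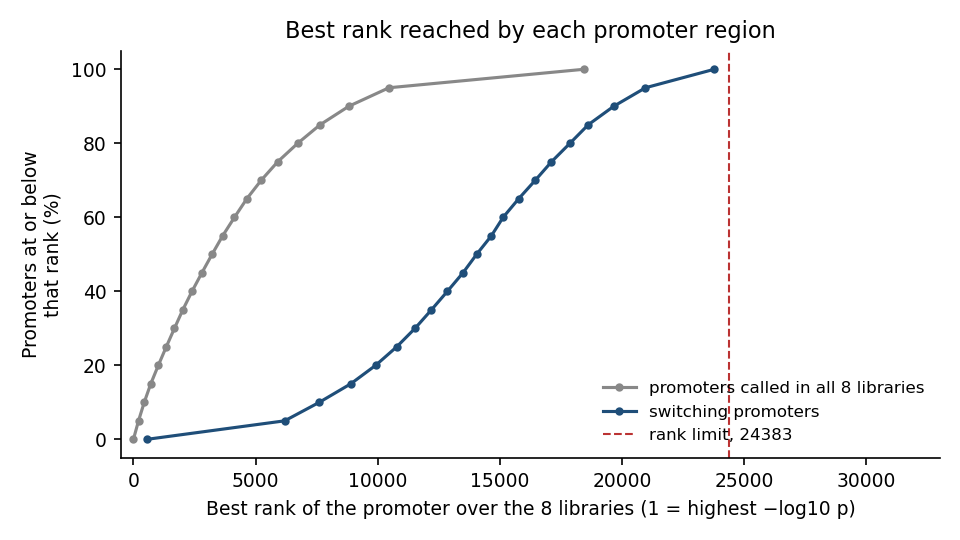
Cumulative share of promoters (y axis, percent) against the best peak rank in any of the 8 libraries (x axis, 1 is strongest), for the 1301 switching promoters and the 6095 called in all 8 libraries. The medians were 14048 and 3221. The rank also decided the calls, so the distance between the curves follows from the rule.

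Promoters near the limit were close calls. Per1, a circadian clock gene, was the last inside: its FAK-/- peaks held ranks 24383 and 13860, and the peaks of FAK-WT cells 36199 and 28191. Fam219b entered through FAK-nls ranks of 12052 and 24375. Just outside, Slc25a1, the mitochondrial citrate carrier, missed because its second FAK-nls peak had rank 24388, and Zfp455 because its second FAK-/- peak had rank 24408. These 4 promoters stood on different sides of the rule by few ranks.

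In 3 of the 4 lines being off seldom meant that the list held no peak, with none in the off line at 3.36% to 7.95% of promoters by pair of lines. Off in FAK-nls, whose lists end at the limit, it was 94.2% to 94.8%. In 2969 of the 3930 library places where an off line lacked a call (75.5%), a weaker peak lay at the promoter beyond the rank limit. For 822 promoters, each library of every off line held such a peak, and in 307 (23.6%) at least 1 off line held none. Where a weaker peak existed (1156 promoters), the worst on rank and the best off rank were a median of 5884 places apart, and for 468 (36.0% of all) the gap was under 5000 places. The ratio of fold enrichment between on and off lines had a median of 1.16 (quartiles, 1.07 and 1.26), and it passed 1.5 at 25 promoters. This ratio leaves out off libraries without a peak, and the 145 promoters with no peak in any off line have none.

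The lines took unequal parts. FAK-nls cells were on at 851 of the 1301 promoters (65.4%) and off at 270 (20.8%), and FAK-kd cells were on at 488 and off at 368. FAK-WT cells were on at 317 and off at 633, and FAK-/- cells were on at 307 and off at 694. A mixed line occurred in 937 promoters, and the other 364 had every line either on or off. Among these 364, on in FAK-nls alone was the most frequent pattern (88), followed by off in FAK-/- alone (56), off in FAK-WT alone (48), on in FAK-nls and FAK-kd (31) and off in FAK-nls alone (31). On in FAK-kd alone was found at 24 promoters, and on in FAK-WT alone and on in FAK-/- alone at 16 each. In addition, 16 were on in FAK-/- and FAK-nls, 12 off in FAK-kd alone, 8 on in FAK-WT and FAK-/-, 7 on in FAK-WT and FAK-kd, 6 on in FAK-WT and FAK-nls and 5 on in FAK-/- and FAK-kd.

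**Figure D2:**
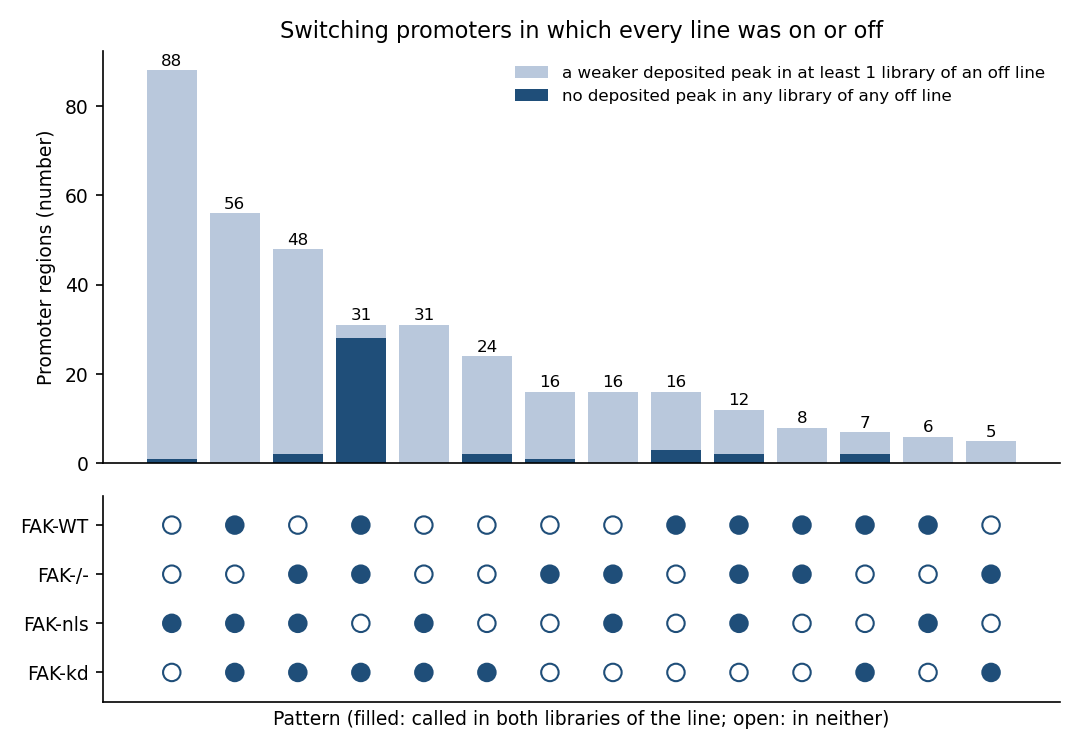
Number of switching promoters (y axis) in each of the 14 patterns of the 364 promoters without a mixed line, with the lines that were on as filled and off as open circles. The dark part of a bar is the promoters with no deposited peak in any library of any off line. The bar for on in FAK-nls alone stands at 88, that for off in FAK-/- alone at 56 and that for off in FAK-WT alone at 48.

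Taking the lines pair by pair, the question of the study was what changes with FAK (FAK-WT against FAK-/-), with its nuclear localization (against FAK-nls) and with its kinase activity (against FAK-kd). Between FAK-WT and FAK-/- cells the counts were almost even: 176 promoters were on in FAK-WT and off in FAK-/- (1.73% of promoter regions), and 173 the other way (1.70%). Against FAK-kd, 88 were on in FAK-WT (0.867%) and 229 on in FAK-kd (2.26%). Against FAK-nls, 132 were on in FAK-WT (1.30%) and 472 on in FAK-nls (4.65%). FAK-/- against FAK-nls gave 134 (1.32%) and 535 (5.27%), and FAK-/- against FAK-kd gave 95 (0.936%) and 256 (2.52%). FAK-nls was on at 273 promoters where FAK-kd was off (2.69%), with 137 the other way (1.35%). These comparisons share libraries.

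**Figure D3:**
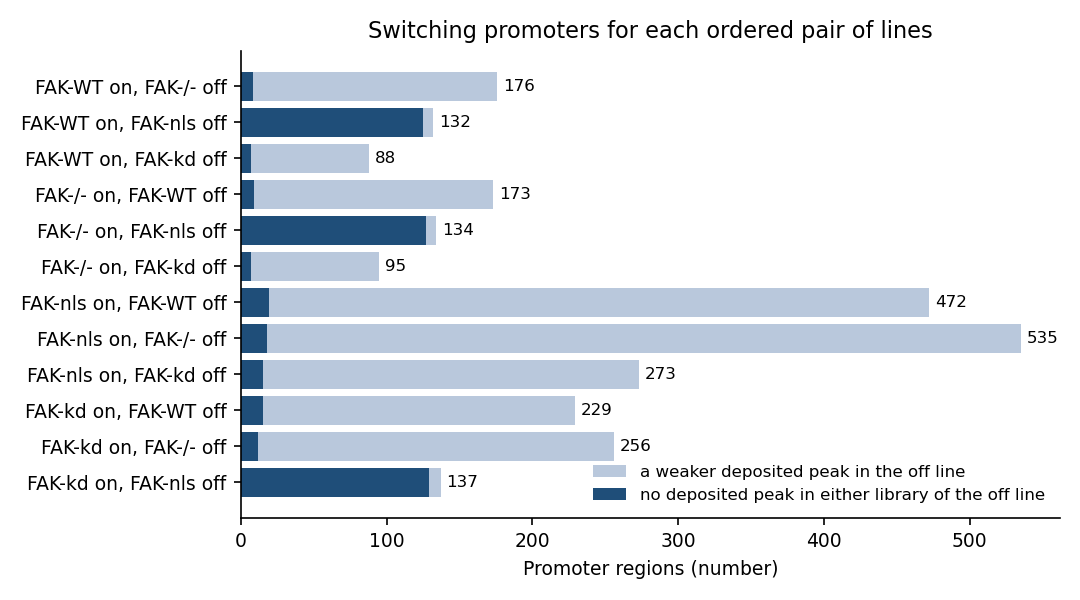
Number of promoters (x axis) on in 1 line and off in another for each ordered pair of lines, with the part that had no deposited peak in either library of the off line in dark. The largest counts, 535 and 472, have FAK-nls on, and the promoters without any deposited peak are found mainly where FAK-nls was off.

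The excess of promoters on in FAK-nls turned under some settings and not under others. It was kept with the top 15000 peaks (429 against 149) and with ranking by fold enrichment (1095 against 128). With all deposited peaks kept, 19 promoters were on in FAK-nls and off in FAK-WT and 814 the other way. Where a call needed 50% of the region to be covered, the counts were 205 and 1115. Where off required that no peak was listed at all, they were 19 and 125. When the same number of promoter peaks was kept in every library (7630), an alternative chosen after seeing the data, they were 262 and 243. Promoters on in FAK-kd and off in FAK-WT likewise went from 229 against 88 to 81 against 133 with all deposited peaks and to 167 against 154 with equal numbers of promoter peaks. FAK-/- against FAK-WT turned both ways. It went from 173 against 176 to 97 against 161 with all deposited peaks and to 177 against 356 with 50% coverage, but to 210 against 182 with ranking by fold enrichment, to 553 against 312 without FAK-WT replicate 2 and to 195 against 105 with FAK-nls left out and longer lists, a setting chosen after seeing the data.

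**Figure D4:**
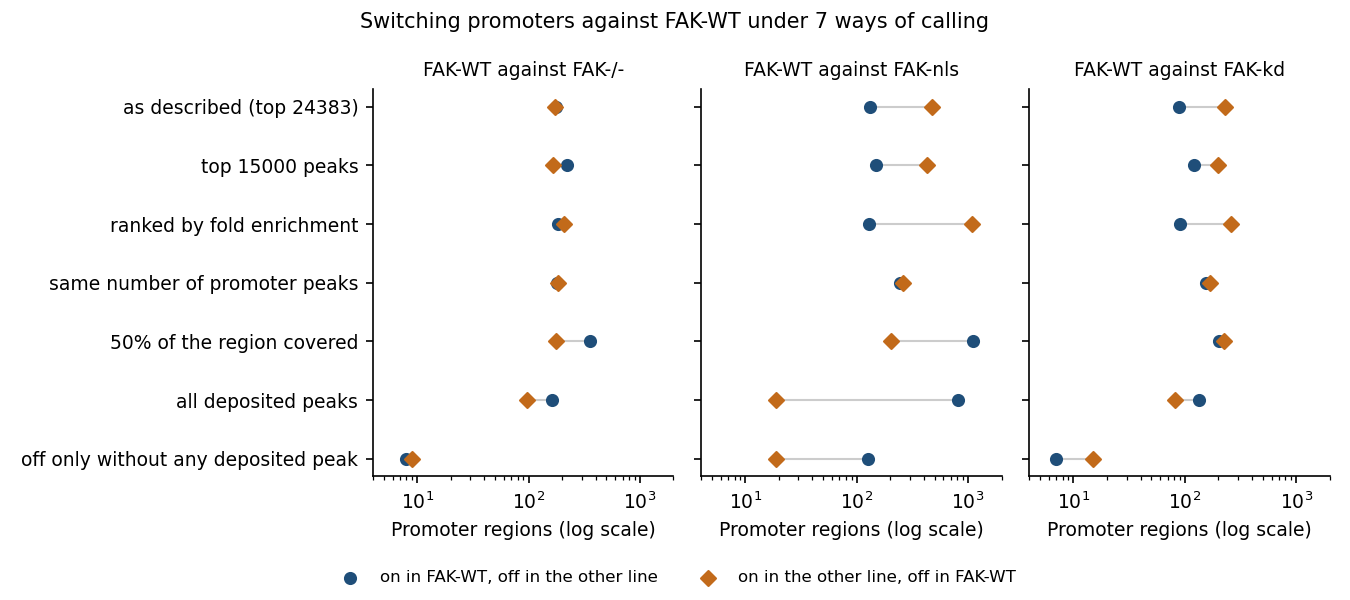
Number of switching promoters (x axis, log scale) on in FAK-WT and off in the other line (circles) and the reverse (diamonds), under 7 ways of calling (rows), with a panel for each of FAK-/-, FAK-nls and FAK-kd. In the FAK-nls panel, with the main rule 472 stand against 132, whereas with all deposited peaks 19 stand against 814.

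What could be checked beyond the limit differed by line. Of the 132 promoters on in FAK-WT and off in FAK-nls, 125 had no deposited peak in FAK-nls, as had 127 of the 134 on in FAK-/- and 129 of the 137 on in FAK-kd. For the other 9 ordered pairs, 7 to 19 promoters had none. The FAK-nls lists end at about the limit, so a weaker peak could seldom be seen there, whereas the lists of the other lines ran on for 8555 to 29320 peaks.

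The number of promoter regions called per library moved with the length of the deposited list. It was 7667 and 8296 in FAK-WT, 7844 and 8075 in FAK-/-, 8823 and 8713 in FAK-nls and 8577 and 8191 in FAK-kd, with deposited lists of 53728 and 39056, 43153 and 35256, 24402 and 24974, and 32961 and 45956 peaks. The shortest lists thus gave the most promoters among their strongest 24383 peaks, and the longest list the fewest. The part of list length in the result was not tested. Lines accounted for 0.743 of the variance in these 8 numbers (exact permutation test over the 105 divisions of the libraries into pairs, p = 0.143; adjusted p = 0.152 by Benjamini-Hochberg over 3 tests, where 0.00952 is the smallest p possible).

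Over all promoter regions, libraries of 1 line shared slightly more calls than libraries of different lines. The Jaccard index (shared calls over all calls of a pair) had a mean of 0.841 for the same line (range, 0.828 to 0.865) and of 0.818 for different lines (range, 0.771 to 0.846), a difference of 0.0238 (1-sided exact permutation test, p = 0.0190; adjusted p = 0.0571). The ranges overlapped, and the difference did not pass 0.05 after adjustment. Without FAK-WT replicate 2, it was 0.0332 (exact permutation test, adjusted p = 0.0143), where FAK-WT has no pair within its line and the other 3 lines alone give the within-line values. Its calls were closer to those of FAK-kd replicate 1 (0.845) than to those of its own partner (0.828).

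CpG content, a property the rule had not used, differed with the call in FAK-nls and between FAK-kd and each of FAK-WT and FAK-/-. A promoter was counted as CpG-poor where the observed-to-expected CpG ratio was under 0.6 or the GC content under 50% in the 500 bp either side of its TSS. Of the switching promoters, 412 were CpG-poor (31.7%; Wilson interval, 29.2% to 34.2%), compared with 18.6% of promoters called in all 8 libraries (17.7% to 19.6%), 24.8% of all called promoters and 57.3% of all protein-coding TSSs. The 2754 promoters called in some libraries without switching held more, 35.4% (33.6% to 37.2%), so that a high share was not particular to switching. Where FAK-nls was off, 161 of 270 were CpG-poor (59.6%; 53.7% to 65.3%), and where it was on, 178 of 851 were (20.9%; 18.3% to 23.8%). By pattern, 15 of the 16 promoters on in FAK-WT alone were CpG-poor (93.8%), as were 21 of the 31 off in FAK-nls alone (67.7%). The share was 22 of 88 for on in FAK-nls alone (25.0%) and 10 of 56 for off in FAK-/- alone (17.9%). Of promoters on in FAK-WT and off in FAK-kd, 56.8% were CpG-poor (46.4% to 66.7%), against 26.2% the other way (20.9% to 32.3%). For FAK-/- on and FAK-kd off, the share was 44.2% (34.6% to 54.2%), against 27.3% the other way (22.2% to 33.1%). On in FAK-WT and off in FAK-/-, the share was 41.5% (34.5% to 48.9%), against 35.3% the other way (28.5% to 42.6%), and these intervals overlapped. The intervals cover counting error only, and the difference was not tested over samples, because it follows calls that define the groups.

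Per library, by contrast, the CpG-poor share of called promoters hardly moved. It was 22.8% and 21.4% in FAK-WT, 22.1% and 22.0% in FAK-/-, 20.8% and 20.7% in FAK-nls and 21.4% and 22.0% in FAK-kd. Both FAK-nls libraries were lowest. Lines accounted for 0.675 of this variance (exact permutation test, p = 0.152; adjusted p = 0.152), and for 0.951 without FAK-WT replicate 2 (exact permutation test, adjusted p = 0.0143), where the lone FAK-WT library adds no spread within its line.

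The motif content of the 300 bases around the TSS (250 before, 50 from the TSS on) was compared on both strands. The AP-1 site TGAGTCA, bound by Fos and Jun proteins, stood in 5.76% of switching promoters (4.62% to 7.17%), in 3.94% of promoters called throughout and in 4.45% of all called promoters. Among promoters off in FAK-nls it stood in 27 of 270 (10.0%; 6.96% to 14.2%), and among those on in FAK-nls in 40 of 851 (4.70%; 3.47% to 6.34%). NF-Y, the CCAAT-binding activator, had its letters in 29.4% of switching promoters against 43.1% of those called throughout and 38.0% of all called. The letters of the ETS family (CCGGAAG) were found in 15.3% against 20.4% and 18.6%, and those of SP factors (GGGCGGGG) in 31.6% against 37.7% and 35.4%. Promoters called in some libraries without switching were close to the switching ones, with 30.6% for NF-Y, 15.9% for ETS, 32.0% for SP and 4.97% for AP-1. YY1 (AAGATGGC) matched 0 of the 270 promoters off in FAK-nls (upper Wilson bound, 1.40%) and 62 of the 851 on (7.29%; 5.72% to 9.23%). Its letters stood in 5.15% of all switching promoters, close to the 5.20% of those called throughout and 5.18% of all called. GC-rich motifs and CpG content go together, and their parts were not separated.

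Fold enrichment at the genes below belongs to the same peaks whose ranks chose these promoters. Where called values lay above uncalled ones, this follows in part from the choice and is description only. Of the 16 promoters on in FAK-WT cells alone, 4 are described first. At Calcrl, the receptor component for adrenomedullin and calcitonin gene-related peptide (chr2:84425104-84425615), fold enrichment was 7.01 and 5.25 in FAK-WT cells, with peak ranks 8654 and 13958. It was 3.80 and 3.27 at ranks 32258 and 33035 in FAK-/- cells, 3.93 in FAK-kd replicate 2, with no peak in the lists of FAK-kd replicate 1 and both FAK-nls libraries. Both FAK-WT values lay above all others. C1qtnf1, a secreted C1q- and TNF-related protein (chr11:118433327-118433898), was called in FAK-WT cells at 4.30 and 3.58, with 3.28 and 2.88 in FAK-/- cells, 3.01 in FAK-nls replicate 2 only, and 2.83 and 3.52 in FAK-kd cells. The C1qtnf1 value of FAK-WT replicate 2 lay only just above the highest uncalled one.

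For Aim2, which encodes a sensor of cytosolic DNA (chr1:173420330-173420624) and was chosen after its values were seen, peaks of 4.83 and 4.50 were deposited in FAK-WT cells and in none of the other 6 libraries. Adamts4, a secreted metalloprotease (chr1:171250198-171250539), likewise had peaks in FAK-WT cells alone, at 3.68 and 3.16. These FAK-WT peaks were modest, with ranks of 17774 to 23410. Cxcl10, an interferon-induced chemokine (chr5:92348755-92349129), was called in FAK-WT cells (5.34 and 4.11) and in FAK-kd replicate 2 (4.47), with weaker peaks of 3.70 and 3.30 in FAK-/- cells and none in the other 3 libraries.

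In FAK-/- cells alone, Snx22, a sorting nexin (chr9:66069625-66070006), was called at 4.79 and 4.23, with an uncalled peak of 4.39 in FAK-WT replicate 1 and none elsewhere. Chgb, a secretory granule protein (chr2:132781641-132782040), was called at 5.82 and 4.60, against 3.92 and 3.31 in FAK-WT cells, 3.29 in FAK-kd replicate 1 and no peak in the other 3 libraries. For Chgb the groups did not overlap, whereas the Snx22 value of FAK-WT replicate 1 fell between those of FAK-/- cells. Tns1, which links integrins to actin (chr1:73962858-73963508), had FAK-/- peaks of 4.45 and 3.35, an uncalled peak of 4.18 in FAK-WT replicate 1, which lay between them, and none in FAK-nls or FAK-kd cells. Its gene has another promoter that was called in all 8 libraries. Gli2, a transcription factor of Hedgehog signaling (chr1:119053477-119053866), had 4.76 and 4.02, against 2.88 in FAK-WT replicate 1, 3.39 in FAK-kd replicate 2 and none in the other 4 libraries.

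On in FAK-nls cells alone, Tnrc18 (chr5:142817657-142818182) had values of 3.46 and 3.49 there, 2.65 and 2.50 in FAK-kd cells, 2.47 in FAK-WT replicate 1, 2.33 in FAK-/- replicate 1 and none in the other 2 libraries. The FAK-nls peaks ranked 8386 and 11276, and those of the other lines 25644 to 39510. Fuca1, a lysosomal fucosidase (chr4:135920385-135921498), was called at 4.26 and 5.16 in FAK-nls cells. Yet its uncalled peaks reached 4.32 in FAK-WT replicate 1, and were 3.68 in FAK-WT replicate 2, 3.34 and 3.36 in FAK-/- cells and 3.26 and 4.14 in FAK-kd cells. Fold enrichment therefore overlapped between lines for Fuca1, and the call turned on rank within each list.

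On in FAK-kd cells alone were 24 promoters, of which 3 are described first. Nid2, a basement membrane nidogen (chr14:19751010-19751632), had peaks of 4.95 and 6.43 in FAK-kd cells (ranks 8827 and 8558), and none was deposited in the other 6 libraries. Fhl1, a LIM-domain protein of muscle and cytoskeleton (chrX:56786038-56786605), was called at 4.86 and 6.22, with 4.26 in FAK-WT replicate 1, 3.55 in FAK-/- replicate 1 and none elsewhere. Vegfc, the lymphatic growth factor (chr8:54076988-54077935), had 4.81 and 5.20 in FAK-kd cells, 3.50 in FAK-WT replicate 1 and no other peak. In each of these 3 genes both FAK-kd values lay above every other library, which the choice of promoters on in FAK-kd alone favors.

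The reverse patterns had a single line off. Off in FAK-WT alone, Fabp5, a fatty acid-binding protein of epidermis (chr3:10012207-10013607), was called at 4.56 and 4.17 in FAK-/-, 3.66 and 4.11 in FAK-nls and 3.83 and 4.73 in FAK-kd cells. Its uncalled FAK-WT peaks of 4.14 and 3.72 overlapped those values and missed the limit at ranks 24845 and 25792. Ank3, the membrane adaptor ankyrin-G (chr10:69925629-69926833), had no deposited FAK-WT peak, with 4.21 and 4.21 in FAK-/-, 4.29 and 4.29 in FAK-nls and 5.66 and 5.18 in FAK-kd cells, while another promoter of the gene was called in all 8 libraries. Ror2, a receptor tyrosine kinase for Wnt5a (chr13:53285084-53286432), was called at 5.41 and 4.35, 5.75 and 4.13, and 4.62 and 4.65 in the same lines, against uncalled FAK-WT peaks of 4.80 and 3.28 at ranks 29061 and 36291.

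Off in FAK-/- alone, Dusp5, a nuclear phosphatase of ERK (chr19:53528728-53529593), was called at 4.41 and 4.58 in FAK-WT, 4.45 and 4.42 in FAK-nls and 4.19 and 4.49 in FAK-kd cells. FAK-/- cells had 1 uncalled peak of 3.34 and no second peak. Nckap5l (chr15:99457539-99458252) had uncalled FAK-/- peaks of 3.29 and 3.37, below its 6 called values of 4.21 to 5.67. Fas, the death receptor (chr19:34290239-34291058), was called at 5.94 and 4.66 in FAK-WT, 3.86 and 4.38 in FAK-nls and 3.87 and 5.41 in FAK-kd cells, with 3.87 and 3.23 in FAK-/- cells. At Dusp5 and Nckap5l the FAK-/- values were lowest, whereas at Fas 1 FAK-/- value lay among the called ones.

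H1foo, the linker histone of oocytes (chr6:115943798-115944558), was off in FAK-nls alone, with no deposited peak there and values of 4.57 to 5.85 in the other 6 libraries. Pald1 (chr10:61382548-61383770) also had no FAK-nls peak, with 4.33 to 6.22 elsewhere. Ccl2, the monocyte chemokine (chr11:82034742-82035745), chosen after its values were seen, was called at 3.84 and 3.38 in FAK-WT, 3.90 and 3.39 in FAK-/- and 3.23 and 4.60 in FAK-kd cells, and had no peak in FAK-nls. Of the 31 promoters off in FAK-nls alone, 28 had no FAK-nls peak. Off in FAK-kd alone were Zfp595 (chr13:67332061-67332803), called at 4.61 to 5.51 against 3.69 and 4.27 in FAK-kd cells, Ptpru, a receptor tyrosine phosphatase (chr4:131837971-131838573), and Plaur, the urokinase receptor (chr7:24461385-24463184), chosen after its values were seen. Plaur was called at 3.09 to 3.82 in 6 libraries and held 2.87 and 3.24 in FAK-kd cells, so that the groups overlapped.

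Patterns with 2 lines on and 2 off were fewer. Thrb, thyroid hormone receptor beta (chr14:17660298-17661263), chosen after its values were seen, was called in FAK-WT (5.76 and 4.57) and FAK-kd cells (4.39 and 4.32), and the lists of FAK-/- and FAK-nls cells held no peak there. Pkp1, the desmosomal plakophilin (chr1:135918802-135919469), was called in FAK-/- (4.72 and 3.95) and FAK-kd cells (4.35 and 6.52), with 3.49 in FAK-WT replicate 1 and no other peak. S100a2, an epithelial calcium-binding protein (chr3:90589289-90589931), was called in FAK-WT (4.09 and 3.18) and FAK-/- cells (3.16 and 3.09), with 2.71 and 2.70 in FAK-kd cells and none in FAK-nls. Ptpre, a tyrosine phosphatase (chr7:135537293-135538090), was called in FAK-nls (4.10 and 4.74) and FAK-kd cells (4.67 and 6.51), with 3.99 in FAK-WT replicate 1 and 3.78 and 3.20 in FAK-/- cells. Its called and uncalled values did not overlap, and the gene has another promoter called in all 8 libraries.

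Fold enrichment overlapped at some of the remaining leading promoters and not at others. Brsk2, a neuronal kinase (chr7:141949302-141950294), was called in FAK-/- (4.40 and 3.82) and FAK-nls cells (4.06 and 4.56), with 3.13 and 3.81 in FAK-kd and no FAK-WT peak, so that 3.81 (uncalled) and 3.82 (called) were nearly level. Hdac11, a histone deacetylase (chr6:91156526-91157068), was called in FAK-/- (4.42 and 4.02) and FAK-kd cells (4.58 and 5.24), although FAK-WT replicate 1 held 4.82. Kxd1 (chr8:70527492-70528046) was on in FAK-WT and FAK-nls, and Rabepk (chr2:34799514-34800290) and Csgalnact1 (chr8:68734725-68735513) in FAK-WT and FAK-kd. Iqsec1 (chr6:90987958-90989314), Kcnab1 (chr3:65108935-65110075), Mb21d2 (chr16:28928488-28930263), Mum1l1 (chrX:139209815-139210267) and Rdh11 (chr12:79190785-79192117) were second in their patterns.

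**Figure D5:**
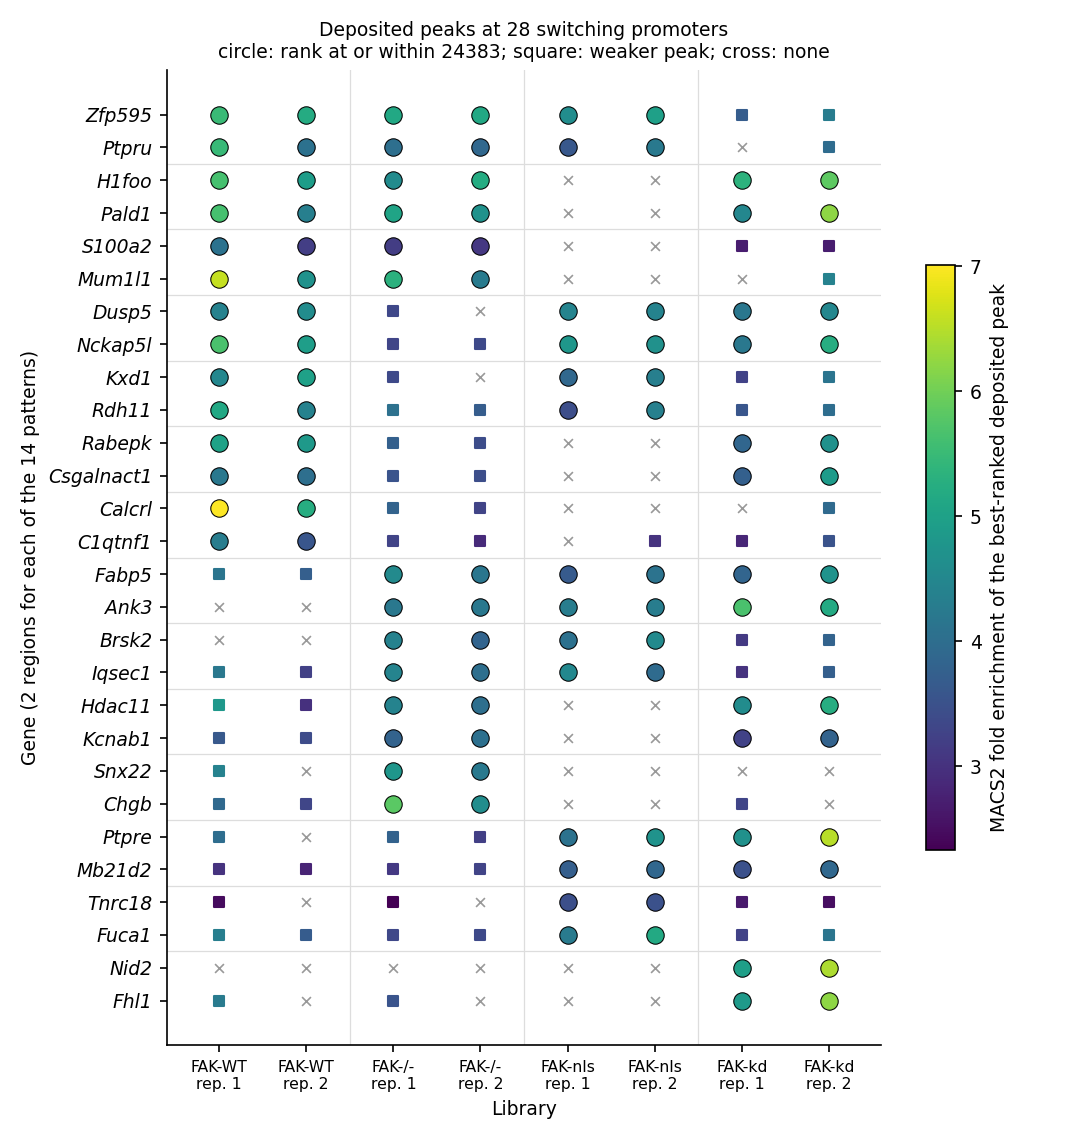
Fold enrichment (color) of the deposited peak in each of the 8 libraries (x axis) at the 28 leading promoters of the patterns (rows), with called peaks as circles, weaker uncalled peaks as squares and libraries without a peak as crosses. Nid2 has values (4.95 and 6.43) in FAK-kd cells alone, while Fabp5 has values in all 8 libraries that overlap between lines.

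Elavl2, a neuronal RNA-binding protein, had the strongest peak of any switching promoter (chr4:91376318-91377038). Fold enrichment was 9.09 and 6.92 in FAK-/- cells (ranks 554 and 1278) and 6.94 and 7.59 in FAK-WT cells. It was 4.76 in FAK-nls replicate 2, with no peak in replicate 1, and 3.68 and 3.40 in FAK-kd cells, beyond the limit. All 4 values of FAK-WT and FAK-/- cells exceeded the others. Shld2, a DNA repair protein (chr14:34296952-34297552), chosen after its values were seen, was next in strength, with 4.71 to 9.03 in FAK-WT, FAK-/- and FAK-kd cells and no peak in FAK-nls, beside another promoter called in all 8 libraries.

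Genes were then grouped by function, and each group was read against the 13.1% of genes with a called promoter (1401 of 10700) that had a switching one. No set was tested. Counts by line within a group are small and are to be read against all 1301 switching promoters, of which 24.4% were on and 48.7% off in FAK-WT, 23.6% and 53.3% in FAK-/-, 65.4% and 20.8% in FAK-nls, and 37.5% and 28.3% in FAK-kd. The FAK-nls shares turn with the processing, as given above. Growth factor signaling had 12 of 35 genes with a switching promoter (34.3%), of which Pdgfc, Vegfc, Ror2 and Fgf9 led, and 9 of the 12 promoters were off in FAK-WT cells (48.7% of all switching promoters were). Integrins, laminins, collagens and other matrix proteins had 11 of 36 (30.6%), led by Nid2, Col6a1, Col1a1 and Col12a1. FAK-nls cells were on at 7 of these 11 promoters and FAK-kd cells at 3, whereas FAK-WT and FAK-/- cells were each on at 1, and FAK-/- cells off at 9. The count for FAK-nls is near the share over all members. For Col6a1 (chr10:76725649-76726304), a chain of collagen VI, values were 3.76 and 4.20 in FAK-nls, 4.24 in FAK-kd replicate 2 (no peak in replicate 1), 3.24 and 2.87 in FAK-WT and 3.06 and 2.55 in FAK-/- cells. Both lines that were off lay below the called values.

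Matrix proteases and the plasminogen system had 6 of 23 genes (26.1%), among them Adam19, Mmp28, Adamts4, Adam12 and Plaur, and 4 of these promoters were off in FAK-kd (28.3% over all members). Mesenchymal transition genes had 6 of 22 (27.3%), led by Cald1, Foxc2, Foxf2 and Inhba, and none of the 6 was on in FAK-WT cells while 5 were off there, against 24.4% and 48.7% of all members. Cald1, which encodes the actin-binding caldesmon (chr6:34709092-34710109), had 4.98 and 4.33 in FAK-/- cells, 4.43 and 4.76 in FAK-kd cells, 5.69 in FAK-WT replicate 1, an uncalled 3.45 in replicate 2 and no FAK-nls peak, beside another promoter called in all 8 libraries. Epidermal identity and cell junctions had 3 of 14 (21.4%; Sprr1a, Pkp3 and Pkp1), with no called promoter at 40 of the 54 genes listed. FAK partners and focal adhesion proteins had 6 of 37 (16.2%): Fermt2, Tns1, Pdlim7, Tln1, Yes1 and Tns3. Tln1, like Tns1, has another promoter called in all 8 libraries. Of these 6 promoters 0 were on in FAK-WT cells and 5 in FAK-nls cells, against 24.4% and 65.4% of all members.

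Immune groups stood at 6 of 30 genes for cytokines, chemokines and their receptors, led by Cx3cl1, Il17ra, Fas and Cxcl10, and at 6 of 29 (20.7%) for interferon response and antigen presentation, led by Irf9, Cd274, Psmb10 and Nlrc5. Irf9, a subunit of the interferon-stimulated factor ISGF3 (chr14:55603832-55604336), had 5.98 and 4.83 in FAK-/- cells, 4.35 and 5.61 in FAK-kd cells, 5.15 (uncalled) and 4.93 in FAK-WT cells and no FAK-nls peak. Cd274, which encodes PD-L1 (chr19:29367144-29367681), had 4.79 and 4.44 in FAK-/- cells, 4.48 in FAK-nls replicate 1, uncalled peaks of 4.51 and 3.67 in FAK-WT and 3.64 and 3.73 in FAK-kd cells. The Cd274 values of FAK-WT and FAK-/- cells overlapped.

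Among transcription factors, 4 of 29 genes of AP-1 and ATF factors switched (13.8%; Mafk at 2 promoters, Atf6, Nfe2l1 and Bach2), 2 of 16 of ETS factors (12.5%; Elk4 and Erf), 6 of 40 of developmental factors (15.0%; led by Sox4, Irx1, Runx1 and Emx2) and 3 of 10 Hox genes (30.0%; Hoxb9, Hoxa4 and Hoxa7). TGF-beta, BMP, Wnt, Notch and Hedgehog signaling had 5 of 52 (9.62%; Fstl1, Gli2, Fst, Wnt5b and Tgfb1). The p53 targets and cell-cycle inhibitors had 2 of 31 (6.45%), Bbc3 and Cdkn1a. At Cdkn1a, the inhibitor p21 (chr17:29093581-29095783), values were 4.16 and 4.22 in FAK-nls, 3.63 and 3.81 in FAK-kd, 3.59 and an uncalled 3.20 in FAK-/- and uncalled peaks of 3.97 and 3.18 in FAK-WT cells. YAP, TAZ and TEAD genes had 0 of 19.

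In gene families defined by name, 15 of 87 Rpl or Rps genes switched (17.2%), among them Rps23, Rpl5 and Rps16, and Rps6ka2, which encodes a kinase and no ribosomal protein. All 15 of these promoters were on in FAK-nls cells, against 65.4% of all members, a direction that turned with all deposited peaks over all promoters. Of the 15, 11 were off in FAK-/- and 8 in FAK-WT cells, against 53.3% and 48.7%. Rps23 (chr13:90922676-90923310) had 5.59 and 4.93 in FAK-nls, 5.91 and an uncalled 3.53 in FAK-WT, 4.16 and an uncalled 4.61 in FAK-kd and no peak in FAK-/- cells. Nduf genes of mitochondrial complex I and its assembly had 8 of 44 (18.2%), with 7 of 9 regions on in FAK-nls (65.4% over all members), and Psm proteasome genes 6 of 44 (13.6%). Zfp genes stood at 28 of 261 (10.7%), Slc genes at 28 of 176 (15.9%), Tmem genes at 16 of 145 (11.0%) and Rab genes at 7 of 64 (10.9%). Higher shares were found for Arhgef and Arhgap genes (9 of 39, 23.1%), Kcn genes (5 of 15, 33.3%) and Pcdh genes (3 of 7, 42.9%), the last 2 on few genes.

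For most genes the switching promoter was the only one called. This held for 1112 of the 1301 promoters (85.5%), and at 85 (6.53%) the gene kept another promoter called in all 8 libraries. By chromosome, the share of promoters that switched ran from 8.91% on chromosome 3 (46 of 516) to 18.2% on chromosome 11 (149 of 819), with 12.7% on X (38 of 300).

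Accessible regions within 25 kb and outside promoters were compared between the on and the off line, beside the same comparison at the promoters called in all 8 libraries, of which 3733 had such a neighbor. For promoters on in FAK-/- and off in FAK-nls, neighbors had more calls in FAK-/- at 48 of 97 (49.5%) and fewer at 15 (15.5%), against 38.1% and 23.9% at promoters called throughout. On in FAK-/- and off in FAK-WT gave 41.7% and 20.9%, against 30.9% and 23.6%, and on in FAK-WT and off in FAK-/- 30.4% and 24.1%, against 23.6% and 30.9%. On in FAK-WT and off in FAK-kd gave 41.3% and 22.2%, against 26.1% and 27.5%, and on in FAK-kd and off in FAK-WT 29.2% and 22.9%, against 27.5% and 26.1%. On in FAK-kd and off in FAK-/- the shares were equal (27.7% and 27.7%), against 23.8% and 30.0%. With FAK-/- on and FAK-kd off, the shares were 35.9% and 26.6%, against 30.0% and 23.8%. With FAK-WT on and FAK-nls off they were 37.8% and 24.5%, against 33.3% and 24.7%. With FAK-kd on and FAK-nls off they were 36.3% and 14.3%, against 34.5% and 24.2%. In the pairs with FAK-nls off or FAK-/- on, more calls in the line that was on were thus also more frequent than fewer at promoters called throughout. For on in FAK-kd and off in FAK-WT this held only narrowly. It did not hold for on in FAK-WT and off in FAK-/- or FAK-kd, nor for on in FAK-kd and off in FAK-/-. With FAK-nls on, the neighbors had fewer calls in FAK-nls more often than more calls. Against FAK-WT, 73 promoters had more (24.5%) and 106 fewer (35.6%), beside 24.7% and 33.3%. Against FAK-/-, these were 104 (29.9%) and 118 (33.9%), beside 23.9% and 38.1%, and against FAK-kd 44 (25.1%) and 61 (34.9%), beside 24.2% and 34.5%. No test was made of these shares. Neighbors were ranked in the same lists, so that in a library with more promoters within the limit other regions have fewer places.

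Members were followed across settings. A promoter was counted as kept where any of its on lines was still on and any of its off lines still off. The remaining lines could change, and a switch found only in the reverse direction was not counted. Of the 1301, 306 (23.5%) were kept with all deposited peaks and 208 (16.0%) with 15000 peaks a library. Ranking by fold enrichment kept 979 (75.2%), and 872 (67.0%) were kept when 50% of the region had to be covered. With equal numbers of promoter peaks, 770 (59.2%) were kept. Under all 5 settings 44 were kept, and under none 41. With 15000 peaks, a promoter is kept only where an on line has both of its ranks within 15000. The median best rank of members was 14048, so many are lost there by depth alone. The FAK-nls lists end at about the limit, so a promoter off in FAK-nls without a peak there cannot be lost by using all deposited peaks. Such promoters were 255 of the 306 and 37 of the 44. The pattern can also change: at Calcrl, FAK-/- cells become on as well when all deposited peaks are used. The 44, described after their values were seen, included Nid2, Pkp1, Thrb, Calcrl, Ank3, Brsk2, Irf9, Cald1 and Cpt1a, the carnitine palmitoyltransferase of mitochondrial fatty acid import. The Cpt1a promoter concerned (chr19:3323162-3323511) had 4.31 and 4.89 in FAK-kd cells, 3.74 and an uncalled 3.04 in FAK-/-, uncalled peaks of 3.81 and 2.91 in FAK-WT and none in FAK-nls cells. Its FAK-kd values were the highest of the 8 libraries.

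No deposited peak in any off line was found for 145 of the 1301 promoters. Of the 364 without a mixed line, 41 met this, among them Nid2, Aim2, Adamts4 and H1foo, and, chosen after their values were seen, Dppa2, a pluripotency factor, Ssh2, a cofilin phosphatase, and Tmod1, which caps actin filaments. Dppa2 (chr16:48303515-48303998) had peaks of 6.45 and 4.27 in FAK-WT cells, Ssh2 (chr11:77348106-77348457) of 4.57 and 4.61 in FAK-/- cells and Tmod1 (chr4:46039034-46039715) of 3.50 and 4.51 in FAK-kd cells, with none in the other 6 libraries in each case. Of the 41 promoters, 25 were CpG-poor (61.0%; 45.7% to 74.3%) and 7 held the AP-1 letters (17.1%; 8.53% to 31.3%). Most of them, 28, were off in FAK-nls alone, where lists were shortest.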

How the data were processed

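ATAC-seq was performed on 2 libraries of each of 4 SCC lines, grouped by the sample labels; the study calls the numbers biological replicates, and p-values measure the spread between these libraries. The authors aligned reads to mm10 with the bcbio pipeline and called broad peaks in each library separately with MACS2 (version 2.1.1 per the submitters' processing notes; stated q 0.05, shift -100, extsize 200), without pooling. The deposited pileup is a coverage signal in reads, the deposited −log10 p-value is the authors' test against local background, and the deposited fold enrichment is the ratio to that background; all are averaged over the peak. Regions carry no counts in these lists, so no count test was run, and read totals of the libraries were not used here.

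Peaks were ranked by −log10 p within each library, 24383 were kept, and overlapping peaks (at least 1 bp) were merged. TSSs of 54355 protein-coding transcripts (21829 genes) came from GENCODE M21, and sequences from GRCm38.p6, with pysam 0.24.0, pandas 2.3.3, numpy 2.4.6 and scipy 1.17.1 in Python 3.11.15. Values with 1 number a library went into exact permutation tests, enumerating every assignment of the 8 libraries to 4 pairs (105 assignments, 3 tests, Benjamini-Hochberg adjusted). Each p was the share of assignments with a statistic at least as high as the observed one. A variance share is high whichever way the lines differ. The merging, the on and off rule and the permutation test of variance shares were tried on simulated data. That simulation had no rank limit and no weaker peaks in off lines, and it left out the similarity test. The members, gene lists and motifs were chosen with earlier results of these data known. Named genes were the 2 promoters of each pattern with the best worst rank over the lines that were on, up to 4 genes a list by the same order, the 4 nearest the limit, and genes the study names. Further genes of a list were added after their values were seen. Leading genes on chromosome 18, and some other leading genes, are not reported here. Alternatives changed the number of peaks, ranking value, window, transcripts, overlap, chromosomes, meaning of off, and libraries used.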

Additional observations from a re-analysis of the deposited data

How the results depend on the processing

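Window width (250 or 1000 bp), all transcripts of protein-coding genes and autosomes only moved no count by over 1.5 times. With all deposited peaks, the share of promoter regions that switched was 10.6%, with 97 promoters on in FAK-/- and off in FAK-WT, 814 on in FAK-WT and 19 on in FAK-nls of that pair, and 133 on in FAK-WT and 81 on in FAK-kd of that pair; with 15000 peaks the share was 17.2%. Ranking by fold enrichment gave 2019 switching promoters (19.9%), with 1095 on in FAK-nls and off in FAK-WT. Requiring 50% coverage gave 2390 (23.5%), with 356 on in FAK-WT and off in FAK-/-, 1115 on in FAK-WT and off in FAK-nls, 205 the other way, and 203 on in FAK-WT and off in FAK-kd. When off also required an absence of weaker peaks, 307 remained (3.02%), with 8 on in FAK-WT and off in FAK-/-, 9 the other way, 19 on in FAK-nls and off in FAK-WT, 125 the other way, 7 on in FAK-WT and off in FAK-kd and 15 the other way. The other alternatives were chosen after seeing the data. Without the FAK-nls line, 686 promoters switched (7.04%), and with the lists then extended to 32938 peaks 539 did (4.99%), of which 105 were on in FAK-WT and off in FAK-/- and 195 the other way. With equal numbers of promoter peaks, 243 were on in FAK-WT and 262 on in FAK-nls of that pair, and 154 on in FAK-WT and off in FAK-kd.

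Leaving out 1 library relaxes the rule for its line. The number of switching promoters then ran from 1687 to 2015 and the share from 16.7% to 19.9%. Counts ran from 176 to 508 for on in FAK-WT and off in FAK-/- and from 173 to 553 the other way. Against FAK-nls they ran from 132 to 313 and from 472 to 1191 the other way, and against FAK-kd from 88 to 305 and from 229 to 709 the other way. Every count moved by over 1.5 times without any 1 of the 4 libraries of its pair, except on in FAK-nls and off in FAK-WT without FAK-WT replicate 1. The 3 exact permutation tests ran from 0.644 to 0.910 (promoter regions per library), 0.0125 to 0.0332 (similarity within lines) and 0.545 to 0.951 (CpG-poor share), and passed the threshold only without FAK-WT replicate 2 (adjusted p = 0.0476, 0.0143 and 0.0143), where the lone FAK-WT library adds no spread within its line.

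Same-numbered libraries did not deviate together in fold enrichment (correlations of −0.220 to 0.0664 over 6 pairs of lines and the 6095 promoters called throughout). Each difference was centered on its median, so a shift of a whole library could not show. The check therefore cannot settle whether the numbers pair the samples. With the replicate number as a block, the 3 values were 0.743, 0.0238 and 0.675 (exact permutation over 24 divisions, adjusted p = 0.292, 0.250 and 0.292), and no call changed. Strength below the list limit could not be seen in FAK-nls.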
